A study of Homo sapiens with 6 samples.

Results

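The genes described here encode the PCNA sliding clamp, its loaders and the enzymes that finish Okazaki fragments. They are the 10 genes PCNA, RFC1, RFC2, RFC3, RFC4, RFC5, CHTF18, FEN1, LIG1 and KIAA0101, taken by symbol from a table of 23228 gene names. All 10 were found, and all 10 passed a filter that left 13255 genes for testing. They were compared between SaOS-2 cells with p21 induced (p21 ON) and not induced (p21 OFF).

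PCNA is a ring that encircles DNA and holds DNA polymerases and repair enzymes on the template. Replication factor C, built from the large subunit RFC1 and the small subunits RFC2 to RFC5, opens the ring and loads it at primed sites. CHTF18 takes the place of RFC1 in an alternative loader that shares the same small subunits. On the lagging strand FEN1 cuts the displaced flap of each Okazaki fragment, and LIG1 seals the remaining nick. KIAA0101, now named PCLAF, is a small PCNA-associated protein. The p21 protein inhibits cyclin-dependent kinases and also binds PCNA, and many genes of DNA replication are targets of the E2F transcription factors.

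SaOS-2 is a human osteosarcoma line that lacks functional RB and p53. The libraries are polyA RNA from cells carrying a Tet-inducible p21 vector, 3 without treatment (p21 OFF) and 3 after 24 h in doxycycline at 1 μg/ml (p21 ON). Cells given doxycycline without the vector were not analysed here, so effects of the drug and of p21 cannot be told apart. Whether the line is a single clone was not given in the sources used here. The labels do not say that replicates were separate cultures, so p-values measure the spread between these libraries, which may be technical. The values are bulk RNA, in which fewer cells expressing a gene and less RNA per cell cannot be told apart.

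The libraries held 12795490 to 21975045 reads on genes, and each of the 10 genes had between 160 and 5047 reads in a library. CDKN1A, the p21 gene, had 1266 ± 84.5 normalized counts (SD, n = 3) in p21 OFF and 43691 ± 3138 (SD, n = 3) in p21 ON cells, where reads of the vector and of the endogenous gene were not separated. Of 8 osteoblast markers, 5 passed the filter, among them ALPL at 36026 normalized counts in p21 OFF cells, whereas COL1A2, SPP1 and BGLAP were at or near 0. Of the 6 markers of other cell types, EPCAM and PECAM1 passed the filter, with EPCAM at 330.2 normalized counts in p21 OFF cells. The p21 OFF replicate 1 library stood apart from the other p21 OFF libraries, with a chi-square per gene of 8.50 and 9.26 against them, where they gave 3.03 between themselves. It was the highest of the 3 p21 OFF libraries for 6 of the 10 genes and for 41.4% of all genes tested. It was the lowest of them for 3 of the 10 genes and for 38.2% of all genes tested. Values of the 10 genes and their ratios whose call changes or whose size moves by over 1.5 times without it are given with and without it.

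Among the 10 genes, 5 were lower in p21 ON cells at an adjusted p-value under 0.05 from limma, and none was higher. RFC3, CHTF18 and KIAA0101 fell most, to 0.463, 0.516 and 0.594 of their p21 OFF levels. RFC5 and FEN1 fell to 0.796 and 0.815. PCNA, RFC1, RFC2, RFC4 and LIG1 did not pass the test. Of all genes tested, 12.7% were lower and 10.5% were higher by the same rule, 1681 and 1393 genes. Scaling by library size alone changed this split to 1194 lower and 2034 higher. At an unadjusted p under 0.05, 2 of the 10 genes were higher and 5 lower. The shares of all genes at that looser threshold were not counted, and the 12.7% and 10.5% do not apply to it. On the recovered reads, edgeR and DESeq2 each called 5 of the 10 genes lower and none higher. The median log2 fold change of the 10 genes was -0.21, and that of all genes tested was 0.0056.

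**Figure D1:**
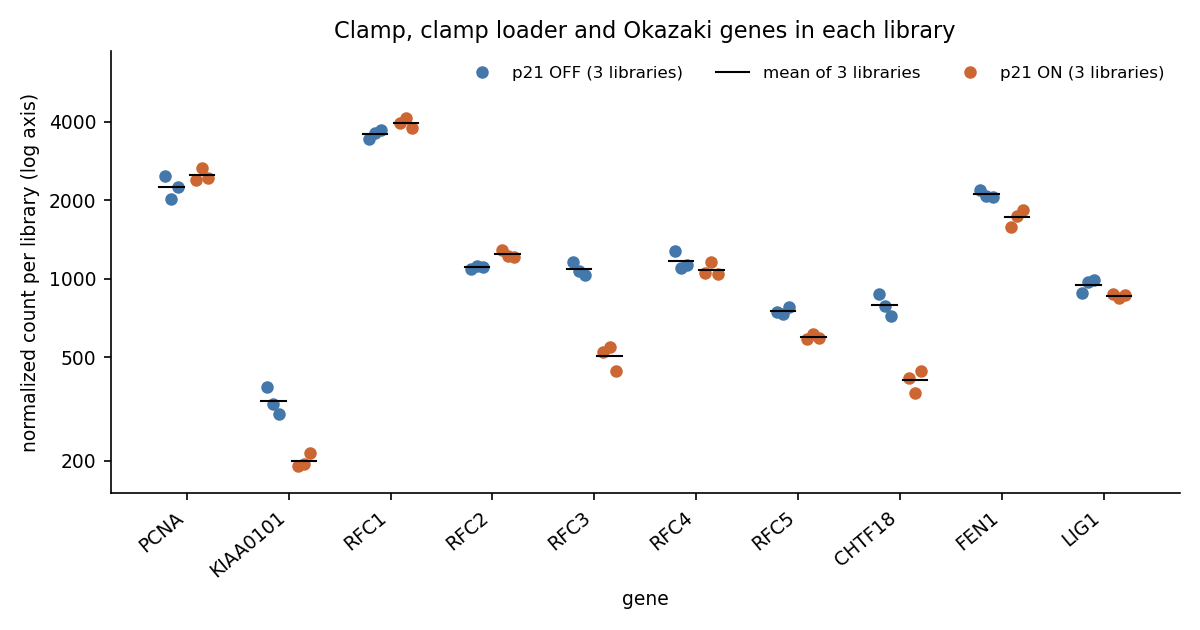
Normalized counts of the 10 genes in each library, on a log axis, with p21 OFF libraries in blue, p21 ON libraries in orange and the mean of each group as a black line. The p21 ON points of RFC3, CHTF18 and KIAA0101 lie well below their p21 OFF points, whereas those of PCNA and RFC4 overlap.

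Counted by overlap alone, for 6 of the 10 genes the highest p21 ON library was under the lowest p21 OFF library, and for 2 the lowest p21 ON library was over the highest p21 OFF library. Among all genes tested these shares were 21.3% and 19.1%. The genes below were RFC3, RFC5, CHTF18, KIAA0101, FEN1 and LIG1, and those above were RFC1 and RFC2.

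PCNA, the clamp itself, did not pass the test. Its normalized counts were 2482, 2024 and 2259 with p21 OFF and 2385, 2664 and 2440 with p21 ON. The groups overlapped, because p21 OFF replicate 1 was higher than p21 ON replicates 1 and 3. The log2 fold change was 0.15 (95% interval -0.0033 to 0.30, limma, adjusted p = 0.145). Without p21 OFF replicate 1 it was 0.22 and passed the test (adjusted p = 0.0061). PCNA lies on chromosome 20 of GRCh37, the hg19 build, from 5095599 to 5107272 on the minus strand. It is on the study's high-stringency G1/S list, as RFC4 and FEN1 are, and on its list of direct p53 targets. The study's low-stringency G1/S list holds 8 of the 10 genes, all but LIG1 and CHTF18, which are on none of its 5 lists.

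KIAA0101 fell. It had 383.0, 329.6 and 303.1 normalized counts with p21 OFF and 190.9, 195.0 and 213.8 with p21 ON. Every p21 ON library was below every p21 OFF library, and limma gave a log2 fold change of -0.75 ± 0.10 (SE) with an adjusted p of 3.47e-05. Relative to PCNA in the same library, the KIAA0101 ratio was 0.154, 0.163 and 0.134 with p21 OFF and 0.0800, 0.0732 and 0.0876 with p21 ON. The difference of the log2 ratios was -0.91 (exact two-sided permutation test, p = 0.1, which is the lowest value that 3 libraries against 3 allow). KIAA0101 lies on chromosome 15 from 64656503 to 64679886 on the minus strand, and its exons overlap those of another annotated gene on the same strand.

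Of the subunits of replication factor C, RFC3 and RFC5 fell. RFC1, the large subunit, had 3431, 3625 and 3731 normalized counts with p21 OFF and 3963, 4138 and 3799 with p21 ON. The p21 ON libraries were all higher, but the log2 fold change of 0.14 (95% interval 0.016 to 0.27) did not pass the test (adjusted p = 0.0942 from limma). RFC1 lies on chromosome 4 from 39289076 to 39367995 on the minus strand.

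RFC2, a small subunit, showed a similar pattern. It had 1094, 1117 and 1106 normalized counts with p21 OFF and 1286, 1222 and 1213 with p21 ON. Its log2 fold change was 0.17 (95% interval 0.034 to 0.30, adjusted p = 0.0627 from limma). After scaling by library size alone RFC1 and RFC2 passed the test, with log2 fold changes of 0.19 and 0.21. The RFC2 to RFC1 ratio differed by 0.02 on the log2 scale between the groups, which overlapped (exact two-sided permutation test, p = 0.7). Without p21 OFF replicate 1 this difference was 0.0496. The sign of the difference changed when p21 OFF replicate 3 was omitted and when p21 ON replicate 1 was. RFC2 lies on chromosome 7 from 73645829 to 73668788 on the minus strand.

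RFC3, another small subunit, showed the largest fall of the 10 genes. Its normalized counts were 1162, 1068 and 1035 with p21 OFF and 522.7, 547.1 and 442.8 with p21 ON. The highest p21 ON library was thus far below the lowest p21 OFF library, and limma gave a log2 fold change of -1.11 ± 0.08 (SE) with an adjusted p of 1.11e-08. With each library left out in turn, it ranged from -1.17 to -1.02. RFC3 lies on chromosome 13 from 34392206 to 34540695 on the plus strand.

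RFC4 did not pass the test. It had 1276, 1096 and 1132 normalized counts with p21 OFF and 1056, 1159 and 1041 with p21 ON. The groups overlapped, and the log2 fold change was -0.10 (95% interval -0.26 to 0.05, adjusted p = 0.313 from limma). It was -0.039 once p21 OFF replicate 1, the highest of the 6 libraries, was omitted. RFC4 lies on chromosome 3 from 186507669 to 186524847 on the minus strand and shares exonic bases with EIF4A2 on the opposite strand.

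RFC5 fell, by less than RFC3. It had 747.3, 731.1 and 779.1 normalized counts with p21 OFF and 585.6, 616.5 and 593.9 with p21 ON, without overlap. Limma gave it a log2 fold change of -0.33 ± 0.07 (SE) with an adjusted p of 0.00262. RFC5 lies on chromosome 12 from 118451393 to 118470935 on the plus strand and overlaps exons of WSB2 on the opposite strand.

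**Figure D2:**
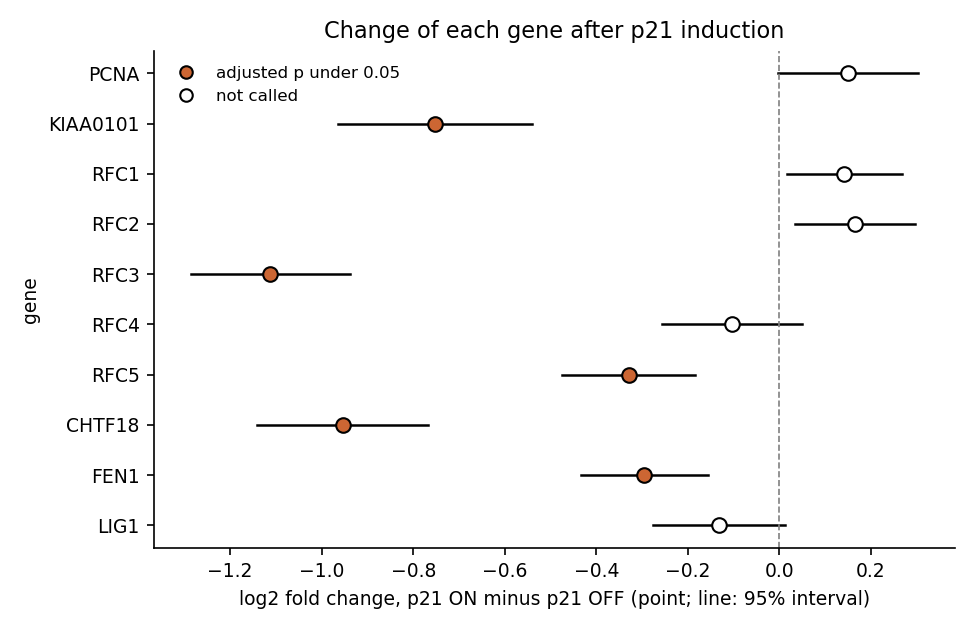
Log2 fold change of each gene between p21 ON and p21 OFF cells (points) with its 95% interval from limma (lines), filled where the adjusted p-value was under 0.05. RFC3 at -1.11, CHTF18 at -0.95 and KIAA0101 at -0.75 stand furthest to the left, and the points of PCNA, RFC1 and RFC2 lie between 0.14 and 0.17.

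Ratios within a library do not depend on how libraries are scaled to each other. The RFC3 to RFC1 ratio was 0.339, 0.295 and 0.277 with p21 OFF and 0.132, 0.132 and 0.117 with p21 ON. This was a change to 0.419 of the p21 OFF ratio, a difference of -1.26 in log2 units. For RFC5 to RFC1 the difference was -0.47, and for RFC4 to RFC1 it was -0.25, or -0.15 without p21 OFF replicate 1. In all 3 of these ratios the groups did not overlap, and each had p = 0.1 by the exact two-sided permutation test, the smallest possible, or 0.133 after Benjamini-Hochberg adjustment over the 8 ratios computed. So none of the 8 ratios could pass a threshold of 0.05. For the mean log2 level of RFC1 to RFC5 relative to PCNA the difference was -0.40, with no overlap between the groups and the same p.

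CHTF18, the large subunit of the alternative loader, fell. It had 876.6, 783.5 and 718.5 normalized counts with p21 OFF and 417.9, 365.5 and 442.8 with p21 ON. Each p21 ON library was far below each p21 OFF library, and limma gave a log2 fold change of -0.95 ± 0.09 (SE) with an adjusted p of 2.95e-07. The CHTF18 to RFC1 ratio changed to 0.467 of its p21 OFF value, a difference of -1.10 in log2 units with no overlap between the groups (exact two-sided permutation test, p = 0.1, again the lowest possible). CHTF18 lies on chromosome 16 from 838046 to 850737 on the plus strand and overlaps exons of RPUSD1 and GNG13 on the opposite strand.

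**Figure D3:**
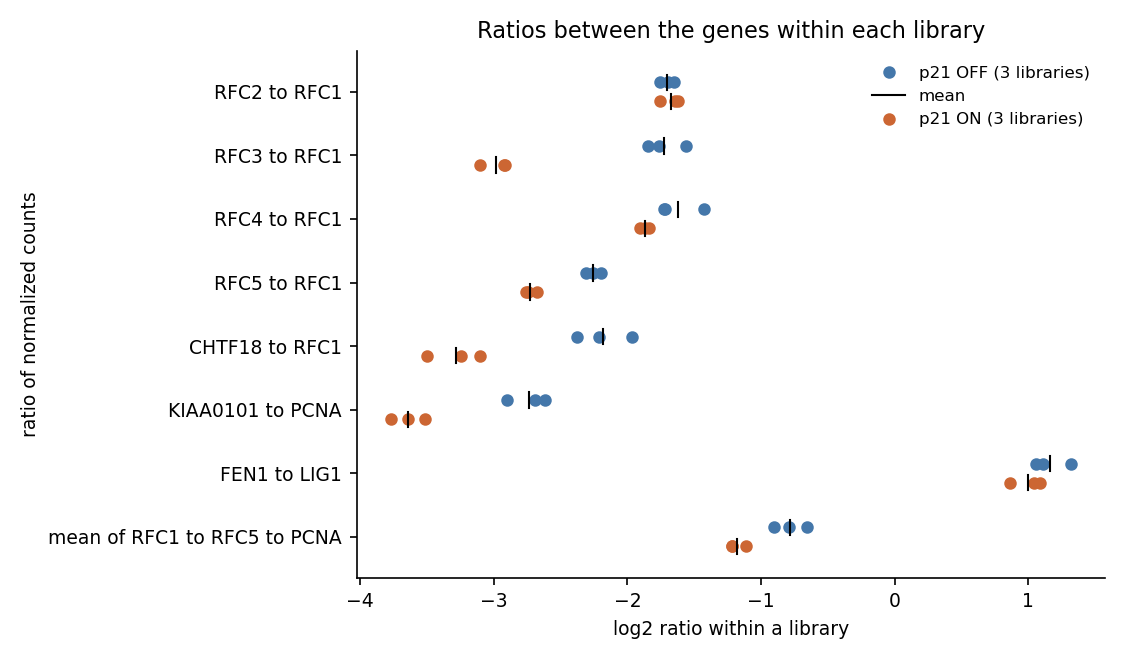
Log2 ratios of normalized counts between genes within each library, with p21 OFF in blue, p21 ON in orange and group means as black ticks. The groups are apart for RFC3, RFC4, RFC5 and CHTF18 to RFC1, for KIAA0101 to PCNA and for the mean of RFC1 to RFC5 to PCNA, and they overlap for RFC2 to RFC1 and FEN1 to LIG1.

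FEN1, the flap endonuclease, fell. It had 2190, 2086 and 2053 normalized counts with p21 OFF and 1587, 1738 and 1840 with p21 ON. The groups did not overlap, and limma gave a log2 fold change of -0.30 ± 0.07 (SE) with an adjusted p of 0.00393. Without p21 ON replicate 1, the lowest of the 3, it was -0.24 and still passed the test (adjusted p = 0.0449). FEN1 lies on chromosome 11 from 61560383 to 61564710 on the plus strand and shares exonic bases with FADS2 on the same strand.

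LIG1, the ligase of Okazaki fragments, did not pass the test. Its normalized counts were 879.1, 967.8 and 986.0 with p21 OFF and 870.8, 843.2 and 867.6 with p21 ON. The highest p21 ON library lay just below the lowest p21 OFF library, and the log2 fold change was -0.13 (95% interval -0.28 to 0.01, limma, adjusted p = 0.169). Without p21 OFF replicate 1 it was -0.18 and passed the test (adjusted p = 0.0391). The ratio of FEN1 to LIG1 differed by -0.16 in log2 units, with overlap between the groups (exact two-sided permutation test, p = 0.2). It was -0.085 without p21 OFF replicate 1 and -0.097 without p21 ON replicate 1. LIG1 lies on chromosome 19 from 48618702 to 48673860 on the minus strand and overlaps an exon of a long noncoding RNA on the opposite strand.

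The levels of the 10 genes were also set against each other per kilobase of the canonical transcript. PCNA was highest in both conditions, with 1767 ± 179 normalized counts per kb (SD, n = 3) in p21 OFF and 1956 ± 115 (SD, n = 3) in p21 ON cells. KIAA0101 was lowest, with 158.8 ± 19.1 and 93.8 ± 5.73 normalized counts per kb (SD, n = 3 each). Exons of another gene on the same strand cover 461 of the 2132 bases of the KIAA0101 transcript, and per kilobase of the remaining bases it had 202.6 ± 24.4 and 119.6 ± 7.31 (SD, n = 3 each), against 256.4 ± 25.7 and 132.2 ± 12.8 for CHTF18, the next gene, so its place below CHTF18 with p21 ON is within their spread on that count. With p21 OFF, the order between them was FEN1, RFC4, RFC1, RFC2, RFC3, RFC5, LIG1 and CHTF18, and of the neighbours in this order LIG1 and CHTF18 alone overlapped. With p21 ON, FEN1, RFC1, RFC4 and RFC2 followed PCNA, with each neighbour in this run overlapping the next. RFC5 and LIG1 overlapped as well. RFC3 moved below both, from 471.9 ± 28.5 to 218.6 ± 23.7 normalized counts per kb (SD, n = 3 each).

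**Figure D4:**
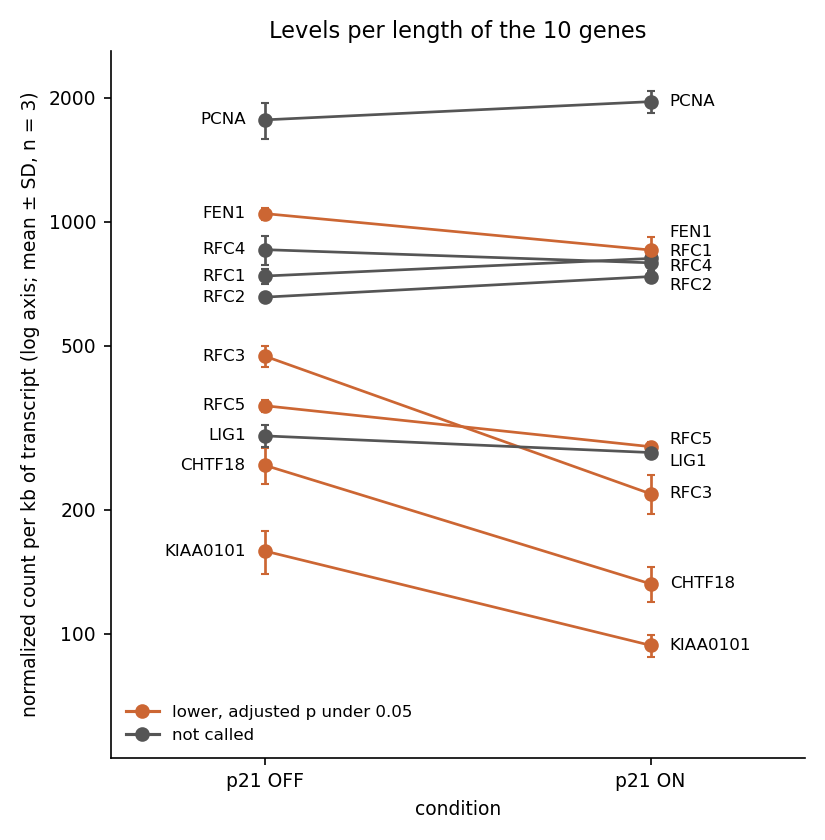
Mean normalized counts per kilobase of transcript in p21 OFF and p21 ON cells on a log axis, with error bars of 1 SD (n = 3), in orange for genes that passed the test. RFC3 crosses RFC5 and LIG1, falling from 471.9 to 218.6, and PCNA lies highest in both conditions.

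The promoters of the 10 genes were searched for E2F and CHR motifs, the elements through which G1/S genes and G2/M genes are known to be bound. The window was 250 bp before to 50 bp after the start of the canonical transcript. As E2F motif the letters TTTCCCGC, TTTCGCGC, TTTGCCGC and TTTGGCGC were used, and as CHR motif TTTGAA and TTCGAA, on both strands. An E2F match was found in 3 of the 10 promoters, and in 4.37% of 19881 promoters of protein-coding genes. A CHR match was found in none of the 10, and in 12.8% of all promoters. The matches are printed with their surroundings, because RFC3 and KIAA0101 carry one and fell, and LIG1 carries one and did not pass the test. Each stretch is printed in the direction of the gene, with the E2F match in capitals, which lies on the opposite strand in RFC3 and KIAA0101.
RFC3, chr13:34392220-34392249, plus strand: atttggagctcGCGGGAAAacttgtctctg
KIAA0101, chr15:64673667-64673696, minus strand: ccttggagcgcGCGGGAAAgagaccaatat
LIG1, chr19:48673697-48673726, minus strand: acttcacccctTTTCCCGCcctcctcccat
The matches begin at positions -55, -45 and -114 relative to the transcript start in RFC3, KIAA0101 and LIG1. All 3 matches are the same 8 letters, read on the gene's strand in LIG1 and on the opposite strand in RFC3 and KIAA0101. CHTF18, RFC5 and FEN1 also fell, and their windows do not hold these letters.

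Other genes that act with the clamp were counted from 6 lists. Of their 53 genes, 50 were tested, and by the same rule 4 were higher, 14 lower and 32 neither. The shares among all genes tested, 10.5% higher and 12.7% lower, are the background for the counts of each list. The median log2 fold change of the 50 genes was -0.13, against 0.0056 over all genes tested.

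Among the alternative loaders and the unloader, 2 of 4 genes fell, where 12.7% of all genes tested did. DSCC1, which joins CHTF18 in its loader, had 432.4 ± 49.8 normalized counts with p21 OFF and 188.7 ± 10.5 with p21 ON (SD, n = 3 each), a difference of -1.19 in log2 units (limma, adjusted p = 4.57e-08). CHTF8, the third protein of that loader's own part, had a log2 fold change of -0.06 (95% interval -0.21 to 0.08). ATAD5, the large subunit of the complex that unloads PCNA, had 323.7 ± 36.7 normalized counts with p21 OFF and 210.1 ± 10.3 with p21 ON (SD, n = 3 each), a difference of -0.62 in log2 units (limma, adjusted p = 0.000264). RAD17, the large subunit that loads the checkpoint clamp, had a log2 fold change of -0.11 (95% interval -0.28 to 0.05). None of the 3 tested genes of that checkpoint clamp, RAD9A, RAD1 and HUS1, passed the test by limma, and edgeR and DESeq2 called none. Of the 3, 1 was lower at an unadjusted p under 0.05, a threshold at which the share of all genes was not counted. RAD9B and HUS1B were below the filter.

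Of the 8 genes of primase and the lagging-strand polymerases, 3 fell and 1 rose (12.7% and 10.5% of all genes tested). PRIM2, a primase subunit, was the weakest of the 3 (adjusted p = 0.0177 from limma), and 2 were lower after scaling by library size alone, at an adjusted p under 0.01 and when p21 OFF replicate 2 or either p21 ON library of replicate number 1 and 3 was omitted. POLA2 and POLD1, subunits of DNA polymerases alpha and delta, had log2 fold changes of -0.44 (adjusted p = 0.000152) and -0.42 (adjusted p = 0.000163). POLA1, the catalytic subunit of polymerase alpha, rose by 0.34 on the log2 scale (adjusted p = 0.0017 from limma). The subunits of polymerase alpha thus went in opposite directions, as POLA1 had 736.0 to 763.5 normalized counts with p21 OFF and 908.4 to 988.2 with p21 ON, and POLA2 had 1058 to 1144 and 770.1 to 855.2.

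Of 9 genes of primer removal and other ligation, 4 fell, where 12.7% of all genes tested did. EXO1, a nuclease, changed by -1.28 on the log2 scale (adjusted p = 8.01e-08), and DNA2, a nuclease and helicase that cuts long flaps, by -0.74 (adjusted p = 1.70e-05). LIG3, XRCC1 and PARP1, which act in the other route of nick ligation, did not pass the test, with log2 fold changes of -0.16, 0.01 and 0.0022. RNASEH2A and RNASEH2C, subunits of the RNase that cuts RNA in hybrids, also fell.

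Of 9 genes that attach ubiquitin to PCNA or remove it, 1 fell, which is near the 12.7% of all genes tested. At an unadjusted p under 0.05, 5 of the 9 were lower. The share of all genes at that looser threshold was not counted, and the 12.7% does not apply to it. The gene that fell was RAD18, a ubiquitin ligase of PCNA, which changed by -0.69 on the log2 scale (limma, adjusted p = 1.25e-05). USP1 and WDR48, which remove ubiquitin from PCNA, had log2 fold changes of 0.12 and -0.14 and did not pass the test.

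Of 18 other PCNA-binding proteins, 17 were tested, and 3 rose and 4 fell (10.5% and 12.7% of all genes tested). Under 8 alternatives 2 were higher, and under 8 alternatives 3 were lower. ESCO2, a cohesin acetyltransferase, changed by -1.34 on the log2 scale (adjusted p = 3.28e-08), and PARPBP by -0.94 (adjusted p = 2.31e-06). MSH6, of mismatch repair, rose by 0.36 (adjusted p = 0.000328) and UNG, the uracil glycosylase, by 0.33 (adjusted p = 0.00207).

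**Figure D5:**
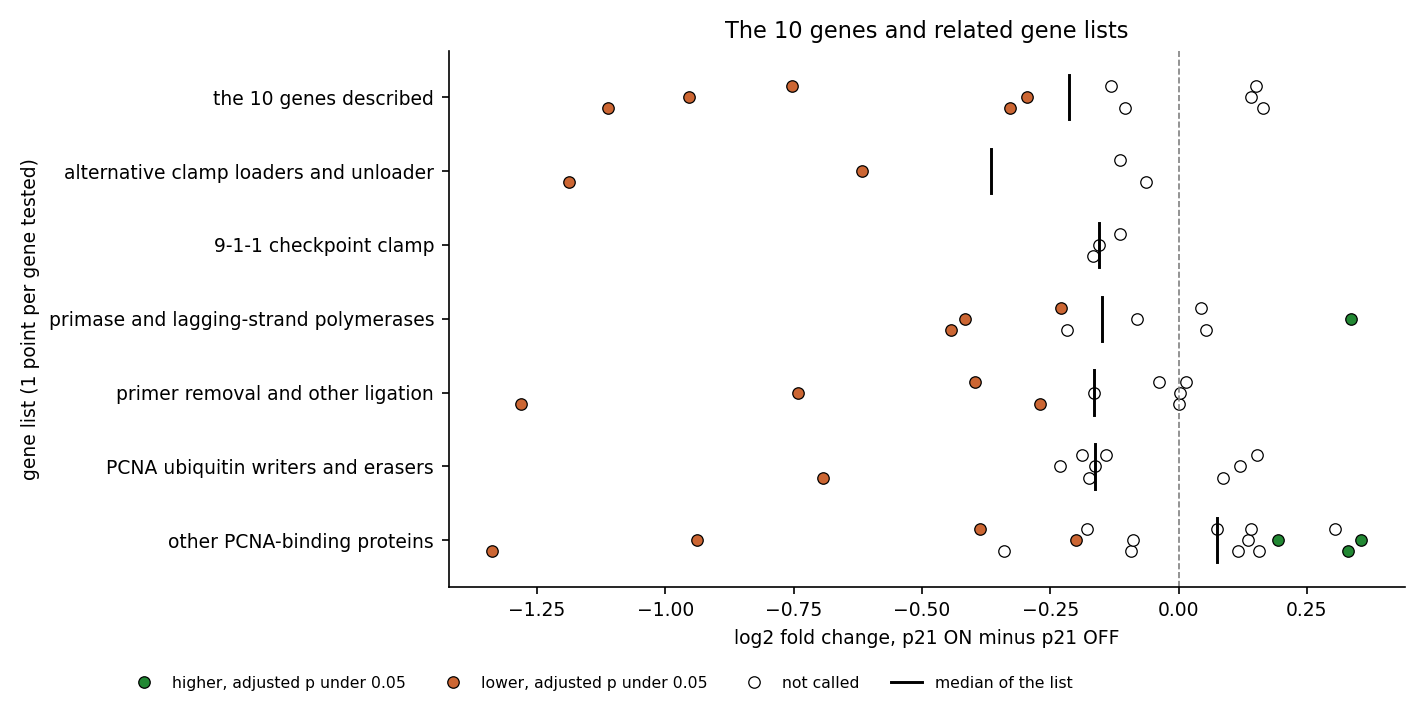
Log2 fold change between p21 ON and p21 OFF cells of each tested gene in the 10 genes described and in the 6 related lists, with list medians as black lines and filled points for an adjusted p-value under 0.05. The list medians lie between -0.36 and 0.08, and the falls below -0.60 are those of RFC3, CHTF18, KIAA0101, DSCC1, ATAD5, EXO1, DNA2, RAD18, ESCO2 and PARPBP.

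Over the 6 libraries, the genes whose log2 values were most like those of PCNA, among 10441 others with a mean of at least 100 normalized counts, were EFNA1, TIGD7 and RASL10B, with Pearson correlations of 0.995, 0.988 and 0.985. None of the 3 passed the test between p21 ON and p21 OFF cells. These are descriptions over 6 libraries, 3 of each condition, in which each library's depth and condition are the same for both genes compared. The 3 genes were picked as the highest of 10441, and whether such correlations exceed those of unrelated genes was not tested.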

How the data were processed

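RNA was sequenced by the authors from 6 libraries of SaOS-2 cells as stranded mRNA libraries in single-end mode. Per the submitters' processing notes and the methods, reads were mapped to hg19 with STAR, counted on genes with HTSeq and normalized with DESeq2. Versions, the strand setting of the counting and the treatment of reads with several matches are not given in the sources used here. PCNA, FEN1, RFC3 and RFC5 have annotated pseudogene copies, and their values are uncertain to that extent. The deposited values are a signal per gene and library, the read count divided by the library's size factor. In each library 100% of the values above 0 were whole multiples of 1 step (tolerance 0.01 reads, rising in proportion for large values), which gave back the reads.

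The table holds normalized values, so limma 3.58.1 (lmFit, eBayes with a trend) in R 4.3.3 was run on log2(normalized count + 1) over all 13255 genes whose mean was 10 or more, with no covariates and Benjamini-Hochberg adjustment over all of them. Fold changes are on this log2(value + pseudocount) scale and understate changes of low genes. edgeR 4.0.16 called 1401 genes higher and 1647 lower on the recovered reads, and DESeq2 1.42.0 called 1118 and 1422. Other alternatives were other scalings, pseudocounts and filters, a stricter threshold, a replicate block and fits that omitted 1 library at a time. The limma step was run on simulated counts with the same dispersion in all genes and no outlying library. That run checks the code and not the calls made here. Ratios of normalized counts were compared by exact permutation over libraries. Positions, transcript lengths and promoters are from GENCODE release 44 lifted to GRCh37, whose coordinates are those of hg19, and the authors' gene models may differ from them.

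The 10 genes and the related lists were chosen with earlier results of these data known. The genes named are all 10, CDKN1A, the markers, up to 2 called genes of lowest adjusted p in each direction in each list and the 3 genes most like PCNA. The other list genes (PRIM2, CHTF8, RAD17, RAD9A, RAD1, HUS1, RAD9B, HUS1B, LIG3, XRCC1, PARP1, RNASEH2A, RNASEH2C, USP1, WDR48) were named after their values were seen.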

Additional observations from a re-analysis of the deposited data

How the results depend on the processing

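The 5 genes called lower (RFC3, RFC5, CHTF18, KIAA0101 and FEN1) kept their direction and their call under each alternative run. Scaling by library size alone moved the median of all genes to 0.05. It gave 2 of the 10 genes higher, RFC1 (0.19) and RFC2 (0.21), and 5 of the other PCNA-binding genes higher. Over all genes it gave 2034 higher and 1194 lower, against 1393 and 1681 with the deposited scaling. The 10.5% of genes higher thus does not apply to these counts. When 1 library at a time was omitted, the genes of the 10 called higher numbered 0 to 1, the ubiquitin genes called lower 1 to 2, PCNA ranged from 0.075 to 0.22, LIG1 from -0.18 to -0.10 and the RFC2 to RFC1 ratio from -0.0030 to 0.065. PCNA and LIG1 passed without p21 OFF replicate 1 alone, and the second ubiquitin gene without p21 ON replicate 2 alone. Over all genes, 695 were higher and 887 lower without p21 ON replicate 1, and 739 and 1077 without p21 ON replicate 3. RFC4 was -0.039, the RFC2 to RFC1 ratio 0.0496, the RFC4 to RFC1 ratio -0.15 and the FEN1 to LIG1 ratio -0.085 without p21 OFF replicate 1. The cause of these changes was not tested. No pairing by replicate number was visible in the values. Same-numbered libraries deviated from their group means with correlations of -0.06, -0.02 and -0.05, and no p21 OFF library correlated best with its own number. These correlations cannot show whether same-numbered samples were prepared together. With the replicate number as a block, 5 of the 10 genes were lower and 0 higher, and all genes gave 1407 higher and 1513 lower. With 3 libraries a group, permutation tests could not go below 0.1.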
